A study of Bos taurus with 56 samples.

Results

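Accessible chromatin next to the centromeric starts of cattle autosomes was followed from the oocyte to the elongating embryo. The members are ATAC-seq peaks on autosomes 1 to 29, without 14, whose centre lay within the first 3 Mb of the chromosome, which is its centromeric end. They numbered 18971 of the 673059 peaks in 11 deposited lists, and 619776 further peaks lay on the rest of the same 28 chromosomes. The starts made up 84 Mb, or 3.46%, of the 2427 Mb spanned by these chromosomes in the lists.

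ATAC-seq marks DNA that a transposase can reach, so that a peak is a stretch of accessible chromatin. The 56 libraries came from pooled cattle (Bos taurus) oocytes or embryos, of 11 groups. The oocytes were at the germinal vesicle (GV, 6 libraries) or metaphase II stage (MII, 5). Cleavage embryos had 2 cells (6 libraries), 4 cells (6), 8 cells (5) or 16 cells (5). Later groups were morulae (6 libraries) and blastocysts (3), each with a counterpart derived in vivo (4 libraries each), and elongating embryos of day 14 (6). The labels give no strain, treatment or age of the donor animals, and no statement of how the groups without an in vivo label were produced. The authors merged the peaks of all libraries of a group into 1 list, so that the spread between libraries was lost, no test between groups could be made, and each value below belongs to 1 list of unknown sequencing depth. The lists fell into 6 short ones of under 10000 peaks (both oocyte stages, 2-cell, 4-cell and both blastocyst groups) and 5 long ones (8-cell, 16-cell, both morula groups and day 14).

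Cattle autosomes are acrocentric, with the centromere at one end. Chromatin around a centromere is usually packed as constitutive heterochromatin over satellite repeats, which is inaccessible in most somatic cells, and the embryo has to rebuild this packing on the parental genomes after fertilisation. In cattle the major activation of the embryonic genome falls around the 8-cell to 16-cell stage, so the lists span chromatin before, during and after that step. Peaks near the starts therefore sample the chromosome flanks next to this heterochromatin. The lists use the build UMD3.1, and because no sequence or annotation of that build was used here, peaks are described by position alone, without genes, repeats or sequence.

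Over the 28 autosomes, which leave out chromosome 14, starts were sparser in peaks than the rest of the same chromosomes in all 5 long lists. They were denser in the MII oocyte, 2-cell and blastocyst lists. A density ratio is given for each list, the peaks per Mb of the starts divided by those of the rest, with a 95% exact Clopper-Pearson interval for counting error alone, as if adjacent peaks were independent. In GV oocytes 105 members gave 1.25 peaks per Mb against 1.62 in the rest, a ratio of 0.769 (interval 0.628 to 0.934). In MII oocytes 33 members gave 0.393 against 0.258 per Mb, a ratio of 1.52 (1.04 to 2.16). Over the first 3 Mb the 2 oocyte lists were thus on opposite sides of 1, but over the first 1 Mb the GV ratio was 1.22, on the same side as the MII ratio of 1.64. In 2-cell embryos 123 members gave a ratio of 1.54 (1.27 to 1.85). In 4-cell embryos 189 members gave 1.04 (0.894 to 1.202), an interval that includes 1.

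From the 8-cell stage the ratio lay below 1 in each long list. It was 0.870 (0.828 to 0.913) in 8-cell embryos with 1675 members, 0.749 (0.715 to 0.784) in 16-cell embryos with 1867 and 0.762 (0.730 to 0.795) in morulae with 2185. Morulae derived in vivo had the lowest ratio of the 11 lists, 0.597 (0.562 to 0.633) with 1133 members. Day 14 embryos had 11483 members, 137 per Mb against 148 in the rest, a ratio of 0.923 (0.906 to 0.941). The blastocyst lists differed in direction. Blastocysts had 128 members and a ratio of 1.33 (1.10 to 1.59), whereas blastocysts derived in vivo had 50 members and a ratio of 0.648 (0.479 to 0.857).

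The pooled ratio counts every start equally but weights the rest by chromosome length. When each chromosome was set against its own rest, the ratio was 0.862 in day 14 embryos (interval 0.847 to 0.878) and stayed within the interval of the pooled value in the other 10 lists. In MII oocytes it was 1.42 with an interval of 0.984 to 1.97, which includes 1. Members also covered less of the starts than peaks covered of the rest in the long lists, for example 0.941% against 1.69% of bases in morulae derived in vivo and 4.56% against 4.93% in day 14 embryos. In blastocysts they covered 0.0764% of the starts against 0.0414% of the rest.

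**Figure D1:**
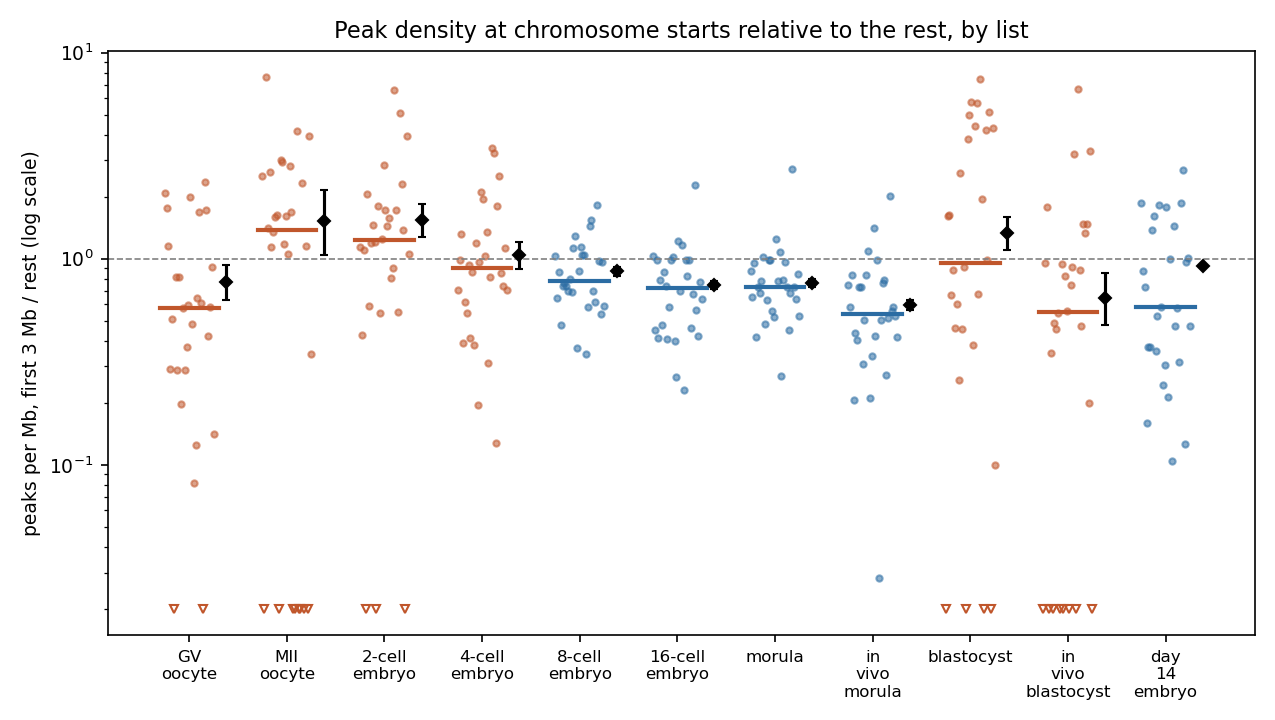
Peaks per Mb in the first 3 Mb divided by peaks per Mb in the rest of the chromosome, on a log axis, for each of 28 autosomes (circles) in each of the 11 lists (short lists in orange, long lists in blue). Triangles at the bottom are chromosomes without a member, horizontal bars are medians over chromosomes, and black diamonds with bars are the pooled ratios with 95% exact intervals. Most chromosomes of the 5 long lists lie below the dashed line at 1, and the blastocyst list spans from 4 chromosomes without a member to 7.43.

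Single chromosomes varied far more than the pooled values. Over the 28 chromosomes the median ratio ran from 0.542 in morulae derived in vivo to 1.38 in MII oocytes. As a background, all other 769 whole windows of 3 Mb on these chromosomes were each set against the remainder of their chromosome. The start was the denser part on 3 of 28 chromosomes in morulae derived in vivo, 4 in morulae, 5 in 16-cell, 9 in 8-cell and 9 in day 14 embryos, where 47.6%, 48.0%, 46.7%, 45.0% and 37.8% of the other windows were denser than their chromosome. The counts were furthest below these shares in the 2 morula groups and in 16-cell embryos, and the day 14 count was near its background. In the short lists the start was denser on 19 chromosomes in MII oocytes and on 19 in 2-cell embryos, against 44.6% and 37.5% of other windows. It was denser on 7 chromosomes in GV oocytes (36.8% of other windows), 11 in 4-cell embryos (36.4%), 13 in blastocysts (27.8%) and 7 in blastocysts derived in vivo (33.8%). The GV and in vivo blastocyst counts, 7 of 28 each, were below these shares.

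Strong departures were also counted. A start with over 2 times the density of its rest was seen on 10 of 28 chromosomes in blastocysts (35.7%), against 10.8% of other windows. The corresponding counts were 9 in MII oocytes (16.9% of other windows), 6 in 2-cell embryos (10.7%), 4 in 4-cell embryos (9.23%), 3 in GV oocytes (14.3%) and 3 in blastocysts derived in vivo (13.9%). A start under 0.5 times the density of its rest was seen on 10 chromosomes in morulae derived in vivo (14.8% of other windows), 9 in 16-cell embryos (5.59%), 4 in morulae (6.24%), 3 in 8-cell embryos (7.28%) and 12 in day 14 embryos (29.5%). Ranked among the windows of its own chromosome, the start stood at the median at percentile 19.9 in 16-cell embryos and 19.6 in morulae derived in vivo. In blastocysts and 2-cell embryos it stood at 75.6 and 75.8.

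The density of the short lists was highest at the very beginning of the chromosomes. Within the first 0.05 Mb, blastocysts had 62 members on 14 chromosomes, 38.6 times the density of the rest, which was 48.4% of all their members. The 2-cell list had 22 members there (16.5 times the rest), the 4-cell list 36 (11.9 times), the in vivo blastocyst list 9 (6.99 times), the GV list 14 (6.16 times) and the MII list 2 (5.53 times). All 6 short lists were thus denser here than in their rest, whatever their ratio over 3 Mb, although the MII value rests on 2 peaks. Among the long lists the 8-cell list had 94 members in this stretch, 2.93 times the rest, followed by the morula list with 51 (1.07 times) and the 16-cell list with 40 (0.96 times). Day 14 embryos, with 146 (0.704 times), and morulae derived in vivo, with 20 (0.632 times), were sparser there than in the rest.

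Past this stretch the excess of the short lists shrank but did not end at once. Between 0.05 and 0.1 Mb all 6 were still denser than their rest, with the lowest value, 1.55 times, in blastocysts derived in vivo. Between 0.1 and 0.5 Mb all but GV oocytes (0.989 times) were denser, from 1.11 times in 4-cell to 1.78 times in 2-cell embryos. Most of the short lists were below their rest between 0.5 and 1 Mb. Between 0.5 and 1 Mb blastocysts had 0.498 times, 4-cell embryos 0.297 times and blastocysts derived in vivo 0.233 times the density of the rest. GV oocytes had 0.791 times the density of the rest there. In 2-cell embryos the density there was 0.976 times the rest, and it was 1.73 times between 1.5 and 2 Mb. In MII oocytes it was 1.11 times the rest there and 2.21 times between 1 and 1.5 Mb, the same as in the first 0.5 Mb. Without the first 0.1 Mb the blastocyst ratio was 0.666, below 1 as was that of blastocysts derived in vivo (0.522). The GV ratio without it was 0.652 and the 4-cell ratio 0.836. The 2-cell ratio without it was 1.25 and the MII ratio 1.43, so that in these lists the starts were denser also beyond the first 0.1 Mb. Within the first 0.1 Mb the density of 4 long lists was also lower in the second 0.05 Mb. It went from 2.93 to 0.685 times the rest in 8-cell embryos, from 0.962 to 0.265 in 16-cell embryos, from 1.07 to 0.398 in morulae and from 0.632 to 0.316 in morulae derived in vivo. The day 14 values were 0.704 and 0.690. Over the 6 bins of 0.5 Mb the ratio ran from 0.519 to 0.79 in morulae derived in vivo and from 0.726 to 1.05 in day 14 embryos. Beyond the members, between 5 and 6 Mb, several short lists were dense again, and 28 of the 66 blastocyst peaks and 25 of the 52 in vivo blastocyst peaks of these bins lay on chromosome 6.

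**Figure D2:**
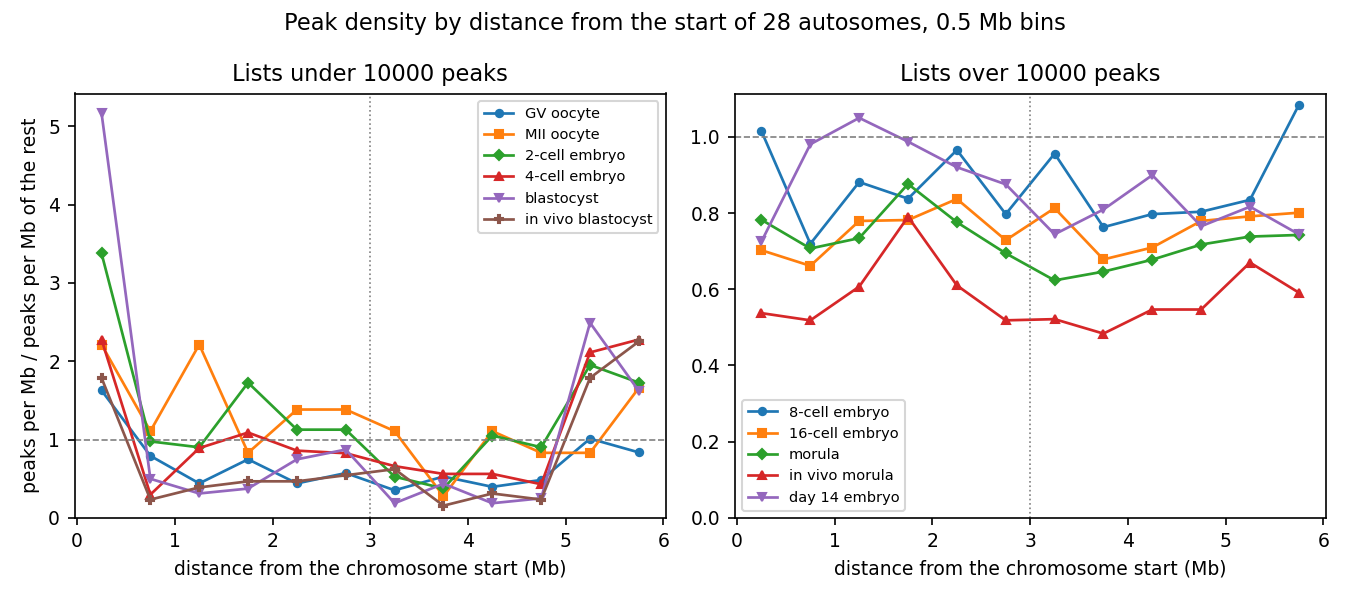
Peaks per Mb in bins of 0.5 Mb from the chromosome start (horizontal axis, Mb), summed over 28 autosomes and divided by the density beyond 3 Mb, for the short lists (left) and the long lists (right). The dotted line marks 3 Mb and the dashed line a ratio of 1. The blastocyst line begins at 5.17 and the 2-cell line at 3.38 before they drop, whereas the long lists stay between 0.519 and 1.05 up to 3 Mb.

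The earliest members lay on a subset of chromosomes. Within the first 10 kb, chromosomes 9 and 26 had a peak in all 11 lists, chromosomes 5, 15 and 18 in 10 lists (all but MII oocytes) and chromosome 17 in 9 lists (neither oocyte stage). In contrast, chromosomes 1, 4, 6, 20, 23 and 29 had no peak there in any list. No share was computed for other windows of 10 kb, so whether these counts are unusual was not tested. The first 0.1 Mb held 66 of the 128 blastocyst members (51.6%, interval 42.6% to 60.5%) and 11 of the 50 members in blastocysts derived in vivo (22%, 11.5% to 36%). Relative to each list's peaks on the 28 chromosomes these were 2.34% (1.82% to 2.97%) and 0.499% (0.249% to 0.891%). These intervals treat adjacent peaks as independent, although the blastocyst peaks were clumped, and do not measure the spread between groups. The difference was not tested. The corresponding share was 0.486% in GV oocytes and, with 3 peaks, 0.470% in MII oocytes, both near that of blastocysts derived in vivo. It was 1.10% in 2-cell and 0.798% in 4-cell embryos, 0.209% in 8-cell embryos and 0.0555% to 0.0852% in the other long lists. The first 0.1 Mb of chromosomes 15 and 16 were among the fullest windows, picked for their blastocyst counts. Lower counts there in other lists are partly given by that choice and show no difference between groups. In the first 0.1 Mb of chromosome 16, blastocysts had 14 peaks, 4-cell embryos 8, 8-cell embryos 10 and day 14 embryos 13. Neither blastocysts derived in vivo nor morulae had a peak there, and morulae derived in vivo had 2. On chromosome 15 blastocysts had 10 peaks, 4-cell embryos 8, 8-cell embryos 17 and morulae 8, whereas morulae and blastocysts derived in vivo had 1 each.

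Some starts kept 1 direction over the 5 long lists. The start of chromosome 25, a short gene-dense chromosome, was denser than its rest in all 5 long lists, at 1.82 times for 8-cell and 2.28 for 16-cell embryos, 2.74 in morulae, 2.02 in morulae derived in vivo and 2.69 in day 14 embryos. It held 2146 (18.7%) of the day 14 members, and without it the day 14 ratio was 0.789 in place of 0.923. Only chromosome 16, at 1.14 to 1.79 times, was likewise denser in all 5 long lists. Such starts were thus 2 of 28, a smaller share than the 21.1% of the other windows. Chromosome 19, gene-dense as well, was the opposite case. Its start had 104 day 14 peaks, 34.7 per Mb against 331.5 in its rest (0.105 times), and 0.343, 0.231 and 0.269 times the density of the rest in 8-cell embryos, 16-cell embryos and morulae. In morulae derived in vivo it held 2 peaks (0.0282 times). The same start was denser than its rest in both blastocyst lists, at 5.70 times with 7 peaks and 3.21 times with 3 peaks derived in vivo. All 7 blastocyst peaks and 2 of the 3 in vivo peaks lay in its first 0.1 Mb.

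In the short lists chromosome 21 stood out. Its start held 8 GV, 2 MII, 17 2-cell, 22 4-cell, 13 blastocyst and 9 in vivo blastocyst peaks, at 1.68, 4.16, 6.59, 3.45, 7.43 and 6.64 times the density of its rest. Its first blastocyst peak began at position 1930043, so this density was not part of the excess at the chromosome tips. In the long lists the same start was at 1.44 times its rest for 8-cell embryos, 0.825 for 16-cell embryos, 0.966 in morulae, 0.760 times in morulae derived in vivo and 0.472 times in day 14 embryos. Chromosomes 3 and 24 were the only others denser at the start in all 6 short lists, 3 of 28 chromosomes against 2.47% of other windows, with the GV maximum, 17 members at 2.37 times, on chromosome 24. The MII maximum, 5 members at 7.59 times, lay on chromosome 3. At the other end, 14 of 28 chromosomes were sparser at the start in all 5 long lists, against 29.8% of other windows, and chromosomes 10, 23 and 27 were so in all 11 lists, against 6.37%. The starts of chromosomes 10 and 23 held 457 and 359 members over all lists, of which 5 and 3 were in short lists. Chromosomes 16, 23 and 27, chromosome 6 beyond the starts and the chromosomes listed for their first 10 kb were singled out after their values were seen.

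**Figure D3:**
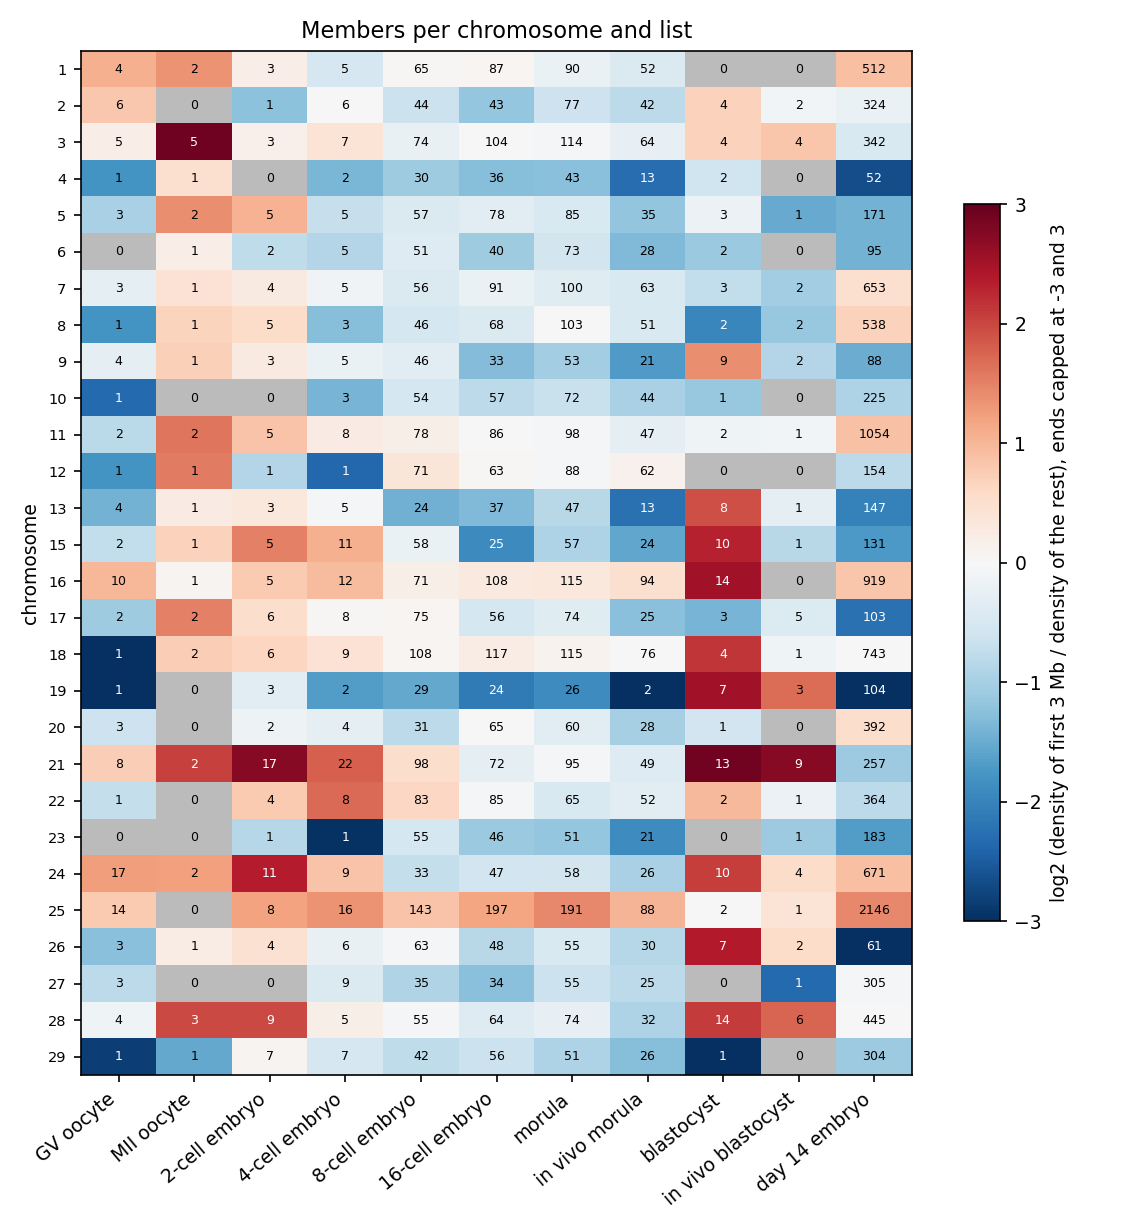
Log2 of the density of the first 3 Mb over that of the rest, for each autosome (rows) and list (columns), with red for denser and blue for sparser starts, grey for no member, and the number of members printed in each cell. Chromosome 25 is red in all 5 long lists and chromosome 19 blue in them, whereas chromosome 21 is red in all 6 short lists.

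The pooled median width of members was near that of other peaks in the long lists and above it in the MII oocyte and both blastocyst lists. Median widths were 450 bp against 459 bp in the rest in 8-cell embryos, 399 against 410 bp in 16-cell embryos, 527 against 524 bp in morulae, 536 against 551 bp in morulae derived in vivo and 217 against 216 bp in day 14 embryos. In blastocysts the median was 338 bp against 224 bp, and in blastocysts derived in vivo 504.5 bp against 377 bp. Among chromosomes with at least 3 members the start had the wider median on 12 of 15 in blastocysts and 4 of 6 in blastocysts derived in vivo. It had the narrower median on 22 of 28 chromosomes in day 14 embryos, 21 of 27 in morulae derived in vivo, 19 of 28 in 8-cell and 17 of 28 in 16-cell embryos and 14 of 28 in morulae. In MII oocytes the medians were 363 against 302 bp, a ratio of 1.20 with an interval of 1.05 to 1.42. GV oocyte and early cleavage members differed less, with 358 against 366 bp in GV oocytes. The medians were 347 against 324.5 bp in 2-cell and 386 against 372 bp in 4-cell embryos. The start had the wider median on 9 of 15 chromosomes in GV oocytes, 2 of 2 in MII oocytes, 13 of 20 in 2-cell and 17 of 24 in 4-cell embryos. The lists have different narrowest peaks, from 125 bp in day 14 embryos to 268 bp in morulae derived in vivo, so widths are compared within a list only.

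The widest member of 5 of the 6 short lists lay within the first 0.05 Mb. In GV oocytes it was on chromosome 9 from 39085 to 41598 (2514 bp), in 2-cell embryos on chromosome 15 from 3825 to 6992 (3168 bp) and in 4-cell embryos in the same place, from 2661 to 7433 (4773 bp). Both blastocyst lists had it on chromosome 5, from 65 to 4026 (3962 bp) and, derived in vivo, from 268 to 3271 (3004 bp). The MII oocyte maximum lay further in, on chromosome 3 from 1049394 to 1050750 (1357 bp). The widest members of the long lists all lay beyond 1.6 Mb and in none of the short lists. They were found in 8-cell embryos on chromosome 12 from 2990296 to 2995663 (5368 bp), in 16-cell embryos on chromosome 18 from 2384026 to 2387863 (3838 bp), in morulae on chromosome 12 from 1917054 to 1921844 (4791 bp) and in morulae derived in vivo on chromosome 7 from 1604999 to 1609296 (4298 bp). The widest member of all was the day 14 peak on chromosome 7 from 2890649 to 2897841 (7193 bp), which met peaks in both morula lists and in the lists of 8-cell and 16-cell embryos.

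Sharing between lists was higher at the starts than in the rest in 6 of the 11 lists. An overlap of 1 bp or more with any peak of another list counted as sharing. Of the members, 90% (interval 78.2% to 96.7%) in blastocysts derived in vivo, 86.7% (79.6% to 92.1%) in blastocysts and 81.9% (79.5% to 84.1%) in morulae derived in vivo had a peak in at least 1 other list, against 49%, 59.6% and 73% of the rest. In 2-cell embryos the shares were 73.2% and 59.4%, and in 16-cell embryos 72.4% and 68.7%. The difference between start and rest had an interval without 0 in these 5 lists, in MII oocytes (63.6% against 43.3%) and, in the opposite direction, in day 14 embryos, where 15.2% of members and 18.2% of the rest were shared. In GV oocytes, 4-cell embryos, 8-cell embryos and morulae it included 0. The chance of an overlap grows with width, so the rest was also weighted to the widths of the members. Its share was then 51.6% in MII oocytes and 63.8% in 2-cell embryos, within or just below the members' intervals (45.1% to 79.6% and 64.4% to 80.8%). It was 62.8% in blastocysts derived in vivo and 72.5% in blastocysts, still below the members' intervals.

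Members of each list were also found more often in many lists, although in 4-cell embryos the difference from the rest included 0. In at least 5 other lists a peak was found for 72% of members (interval 57.5% to 83.8%) in blastocysts derived in vivo against 26.6% of the rest, and for 35.2% (26.2% to 45.2%) in GV oocytes against 18.9%. In MII oocytes these shares were 45.5% and 22.8%, in 2-cell embryos 41.5% and 25.8%, and in blastocysts 40.6% and 21.6%. At the widths of the members the rest stood at 40.9% in blastocysts derived in vivo, 22.4% in GV oocytes, 33.6% in MII oocytes, 32.9% in 2-cell embryos and 36.5% in blastocysts. After this weighting the rest lay below the members' interval in blastocysts derived in vivo and GV oocytes, and within it in MII oocytes, 2-cell embryos and blastocysts.

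**Figure D4:**
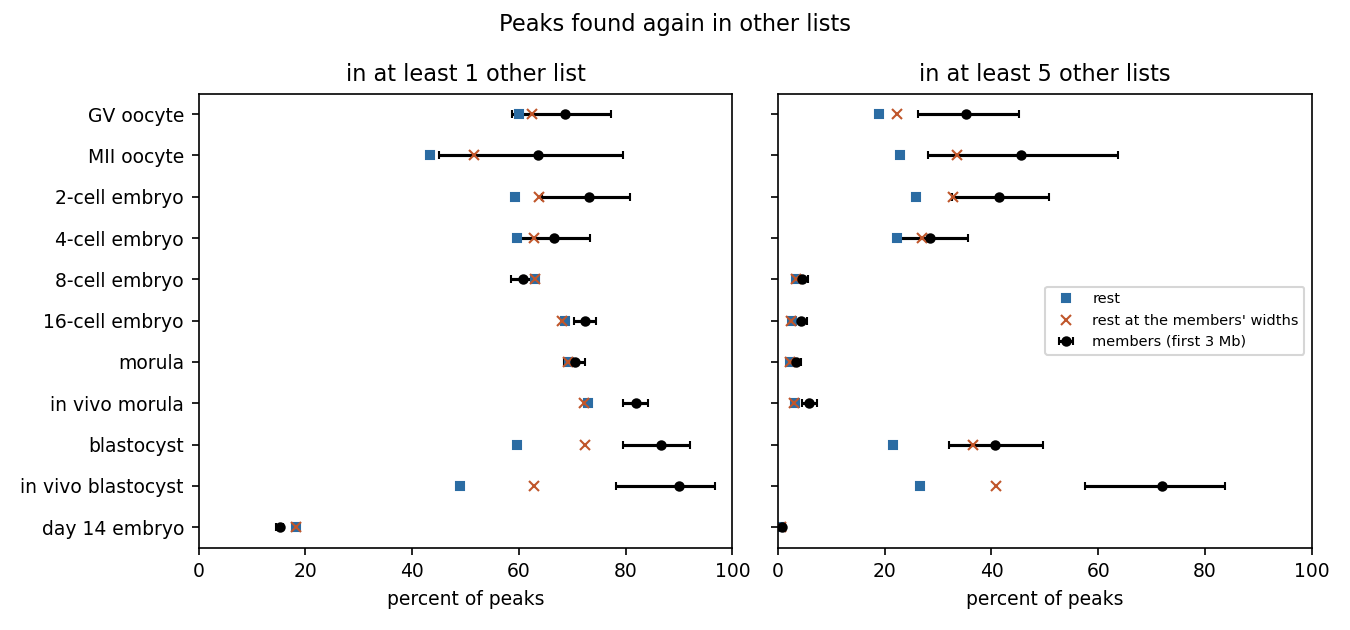
Percent of members (black circles, with 95% exact intervals), of the rest (blue squares) and of the rest weighted to the widths of the members (orange crosses) found in at least 1 (left) or at least 5 (right) of the other 10 lists. Blastocysts derived in vivo show the widest gap, 90% against 49% on the left and 72% against 26.6% on the right, whereas the 8-cell and morula circles nearly coincide with the rest.

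Between consecutive stages the shares of the short lists were higher at the starts, although not in every pair beyond counting error. Of the MII members, 10 of 33 (30.3%) overlapped a GV peak, against 15.5% of the rest (26.3% at equal widths), and 9.52% of the GV members overlapped an MII peak. The MII value had an interval of 15.6% to 48.7%, and its difference from the rest included 0. Of the MII members, 42.4% (25.5% to 60.8%) overlapped a 2-cell peak, against 19.7% of the rest (31.4% at equal widths), and 11.4% of 2-cell members overlapped an MII peak. Of the 2-cell members 37.4% (28.8% to 46.6%) overlapped a 4-cell peak against 22% of the rest (29.5% at equal widths), and 22.2% of 4-cell members overlapped a 2-cell peak. Of the 4-cell members 44.4% (37.2% to 51.8%) overlapped an 8-cell peak against 30.9% of the rest (35.6% at equal widths), and 4.96% of 8-cell members overlapped a 4-cell peak. At equal widths the rest lay within the members' interval for the MII and 2-cell members and below it for the 4-cell members.

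From the 8-cell stage to the morula the shares at the starts were close to those of the rest. Of the 8-cell members 43% overlapped a 16-cell peak against 45.2% of the rest, and the difference included 0. In reverse, 40.5% of the 16-cell members overlapped an 8-cell peak against 35.8%, a difference of 4.67 percentage points with an interval of 2.40 to 6.96. Of the 16-cell members 48.6% overlapped a morula peak against 46.7%, with 39.4% against 37.7% in reverse, and both differences included 0. Of the blastocyst members 44.5% (35.7% to 53.6%) overlapped a morula peak, against 26.6% of the rest and 40.9% of the rest at equal widths, and 2.52% of morula members overlapped a blastocyst peak. With the day 14 list the blastocyst members shared 69.5% against 54.7%, or 68.1% at equal widths, and 0.801% of day 14 members overlapped a blastocyst peak. At equal widths the rest lay within the members' interval in both comparisons.

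Between lists with and without the in vivo label, the in vivo members were shared more often than the rest, and those without the label were not. Of the in vivo blastocyst members 40 of 50 (80%, 66.3% to 90%) lay on peaks of the blastocysts without that label, against 30.2% of the rest and 44.9% of the rest at equal widths. In the reverse direction 32.8% of the blastocyst members (24.8% to 41.7%) were found in vivo, against 27.1% of the rest, a difference that included 0, and against 42.7% of the rest at equal widths, above the members' interval. Of the in vivo morula members 786 of 1133 (69.4%, 66.6% to 72%) lay on peaks of morulae without it, against 60.3% of the rest. In reverse 34.9% of the morula members (32.9% to 37%) were found in vivo, against 39.2% of the rest, a difference of -4.27 percentage points (-6.30 to -2.20). The few in vivo blastocyst members thus lay mostly where blastocysts without the label also had peaks.

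Joining overlapping members of all lists gave 14010 regions, of which 9735 had a peak in day 14 embryos alone. Regions at the starts were rarer per Mb than those of the rest (0.876 times), but those found in many lists were commoner. Of the start regions 29 (0.207%, interval 0.139% to 0.297%) were found in 8 or more lists, against 0.0796% of regions beyond the starts, which was 0.345 against 0.152 regions per Mb or 2.28 times. All 11 lists shared 9 start regions (0.0642%) against 0.0157% beyond, 3.59 times the density. Of the 29 regions 8 lay in the first 0.1 Mb, 18.9 times the density of the rest, and 21 between 0.1 and 3 Mb, 1.71 times. Regions present in a 2-cell or 4-cell list made up 1.83% at the starts and 1.49% beyond, and those in both oocyte lists 0.0714% (10 regions) and 0.0202%. The 333 regions found in both morula lists, the 8-cell list and the 16-cell list made up 2.38% at the starts and 2.58% beyond, so that this common set was not richer near the centromere.

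**Figure D5:**
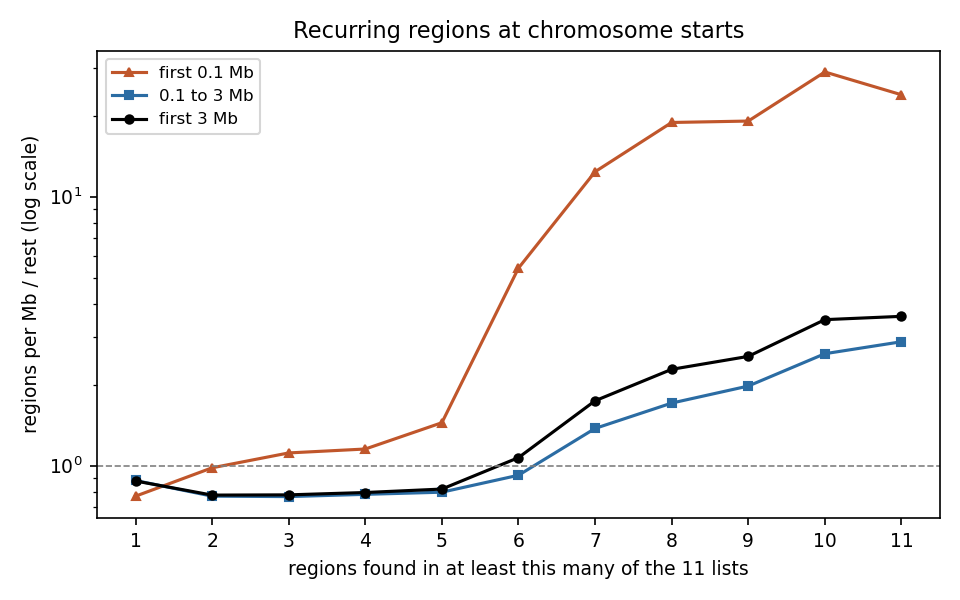
Regions per Mb divided by those of the rest, on a log axis, for regions found in at least the number of lists on the horizontal axis, in the first 3 Mb (black), its first 0.1 Mb (orange) and from 0.1 to 3 Mb (blue). The 3 lines lie between 0.766 and 1.15 for at least 1 to 4 lists and all above 1 from 7 lists on, where the first 0.1 Mb reaches 12.4 with 9 regions.

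The 29 recurring regions lay on 16 chromosomes, with 6 on chromosome 21, 4 on chromosome 28 and 3 on chromosome 3. Their median width was 1310 bp, and the 8-cell and blastocyst lists had a peak in all 29. The MII list had peaks in 12 and the GV list in 23. Of the 9 regions found in 10 lists, 8 lacked a peak in MII oocytes and 1 in GV oocytes, so that the shortest list set most of the absences.

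The 9 regions found in every list differed in how constant they were. The region on chromosome 28 from 1893681 to 1895088 was covered by peaks over 1315 bp at the least, 1388 bp at the median and 1405 bp at the most. That on chromosome 17 from 269487 to 270745 was covered over 1018, 1184 and 1233 bp. These 2 regions thus had nearly the same extent from the oocyte to day 14, in lists of very different length. The regions on chromosome 3 from 1023830 to 1024490 (450 to 661 bp), on chromosome 7 from 461684 to 462638 (376 to 919 bp) and on chromosome 8 from 121858 to 123406 (543 to 1549 bp) varied more, with the shortest extent in 2-cell embryos for the first, MII oocytes for the second and GV oocytes for the third.

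Other regions differed more in extent between lists. On chromosome 3 from 1046761 to 1052731 the peaks covered 1259 bp in GV oocytes, 1357 in MII oocytes, 1309 in 2-cell, 1256 in 4-cell, 3291 in 8-cell and 2479 bp in 16-cell embryos. There they covered 5548 bp in morulae, 2671 in morulae derived in vivo, 1417 in blastocysts, 1303 in blastocysts derived in vivo and 5459 bp in day 14 embryos. The 6 short lists were thus close to one another and all 5 long lists were above them. Stage and list length cannot be told apart here. On chromosome 13 from 883013 to 886779 the order was different, with 3456 bp in 4-cell and 3754 bp in 8-cell embryos, 2651 bp in blastocysts and 774 bp in morulae. At the chromosome tips, the region on chromosome 26 from 433 to 2951 was covered over 362 bp in MII oocytes and 2516 bp in 8-cell embryos, and the region on chromosome 9 from 2650 to 5147 over 373 bp in MII oocytes and 2398 bp in GV oocytes. The region on chromosome 15 from 2634 to 7477 had no MII peak, 289 bp in GV oocytes, 3483 bp in 2-cell, 4773 bp in 4-cell and 4748 bp in 8-cell embryos, and 3283 bp in blastocysts against 997 bp in blastocysts derived in vivo.

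Members had close neighbours more often than other peaks in 3 short lists and slightly less often in 4 long lists. The share of members with another peak of the same list within 10 kb was 72.7% (interval 64.1% to 80.2%) in blastocysts against 56.1% of the rest, 34.4% (27.7% to 41.6%) in 4-cell embryos against 21.8%, and 28.5% (20.7% to 37.3%) in 2-cell embryos against 19.5%. In GV oocytes, MII oocytes and blastocysts derived in vivo it was 23.8%, 18.2% and 36%, with intervals of the difference that included 0. In the long lists it was 63.1% against 65.6% in 8-cell embryos, 63.1% against 66.5% in 16-cell embryos, 65.9% against 69.4% in morulae and 55.1% against 61.9% in morulae derived in vivo, with intervals of the difference below 0, and the day 14 interval included 0. This share depends on density, which was lower at the starts in the long lists. Density was higher at the starts in 2-cell embryos (1.46 against 0.952 per Mb) and blastocysts (1.52 against 1.15). In 4-cell embryos it was similar (2.25 against 2.165).

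Of the 840 windows of 0.1 Mb at the starts, 94.3% held no blastocyst member and 96.1% no in vivo blastocyst member, against 94.4% and 93.4% of such windows in the rest. The variance of the number of peaks per window over its mean was lower at the starts than in the rest in both blastocyst lists (5.57 against 11.8, and 2.10 against 4.01 in vivo), in 2-cell embryos (1.65 against 2.64) and in MII oocytes (1.39 against 1.98). It was slightly higher at the starts in GV oocytes (1.68 against 1.54) and 4-cell embryos (2.26 against 1.98). By this measure the starts of the blastocyst and 2-cell lists were thus less uneven than the rest, although their members had close neighbours more often. The fullest windows over all short lists were the first 0.1 Mb of chromosomes 16 and 15 in blastocysts, with 14 and 10 members, and the window of chromosome 28 from 2600001 to 2700000, also with 10. The chromosome 28 window held 5 peaks in 2-cell embryos, 3 in 4-cell embryos and 5 in blastocysts derived in vivo, and 1 in each oocyte list, and 4 to 10 in each long list. A window on chromosome 21, from 1900001 to 2000000, was not among these fullest windows and was singled out after its values were seen. It held 8 peaks in 4-cell, 4 in 2-cell and 3 in GV lists, 4 in each blastocyst list and 0 in MII oocytes, and 2 to 15 in each long list. Both windows thus held peaks in nearly every list, with MII oocytes on chromosome 21 the only absence.

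The border at 3 Mb was arbitrary with respect to the peaks. The day 14 member closest to it, on chromosome 16 from 2999894 to 3000079, and the nearest day 14 peak beyond it, on chromosome 23 from 3000425 to 3000594, were 186 and 170 bp wide and were found in no other list.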

How the data were processed

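Members and comparisons were chosen with earlier results of these data known. The design text states that libraries of a group were merged into 1 peak list by the authors. Each deposited list holds chromosome, start and end (bp), with no score or count, so depth is unknown and limits every number of peaks. The build UMD3.1, MACS2, HOMER, bedtools and Bowtie2 2.3 are named per the submitters' processing notes. Not given in the sources used here are thresholds, read shift and merging rule. Lists were read as BED (start from 0) and printed from 1, a convention the files do not state. Chromosome lengths are the last position in any list. No p-value is given.

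Regions named were the widest member per list, the 10 regions in most lists, the extreme chromosomes with at least 3 members, the fullest 0.1 Mb windows of lists under 10000 peaks and the members beside 3 Mb; others are marked. Tests on simulated lists recovered 32 of 33 pooled and 32 of 33 standardised ratios within their intervals and 11 of 11 planted overlap counts. For the ratios, simulated peaks were placed independently and evenly, unlike the clustered peaks of the lists. How well the intervals cover in these data was thus not tested. Overlap counts of 10 pairs equalled those of bedtools 2.31.1. Differences of shares have intervals joined from both exact intervals. Tools were matplotlib 3.10.9, scipy 1.17.1, pandas 2.3.3, numpy 2.4.6 and Python 3.11.15.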

Additional observations from a re-analysis of the deposited data

Results flagged for a closer look

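The density ratio of the chromosome start, first 3 Mb against rest, lay on opposite sides of 1, each with an interval leaving out 1, in 4 pairs of groups. GV oocytes had 0.769 and MII oocytes 1.52. Morulae had 0.762 and blastocysts 1.33. Blastocysts (1.33) and day 14 embryos (0.923) were opposite as well. Blastocysts had 1.33 and blastocysts derived in vivo 0.648. Each value comes from 1 merged list, and the difference between groups was not tested. In all 3 pairs with blastocysts the contrast rests on the first 0.1 Mb, without which the blastocyst ratio was 0.666. In GV oocytes the ratio over the first 1 Mb was 1.22, on the same side as MII oocytes (1.64). In MII oocytes the ratio with each chromosome against its own rest had an interval that includes 1 (0.984 to 1.97). All these ratios leave out chromosome 14, whose start was denser than its rest in all 11 lists.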

How the results depend on the processing

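Of 198 values under alternatives, 162 moved by less than the counting error, so that some values near no difference changed sign within it, 32 moved more and 4 reversed; no cause was tested. Density ratio: taking the first 1 Mb as the start gave 1.22 in GV oocytes and 1.02 in blastocysts derived in vivo (both reversed), 2.17 in 2-cell, 1.29 in 4-cell and 0.685 in 16-cell embryos, 0.532 in morulae derived in vivo, 2.86 in blastocysts and 0.854 in day 14 embryos. The first 5 Mb gave 0.887 in blastocysts (reversed), 1.2 in 2-cell and 0.836 in 4-cell embryos, 0.718 in morulae, 0.562 in morulae derived in vivo and 0.872 in day 14 embryos. Without the first 0.1 Mb it was 0.666 in blastocysts (reversed), 1.25 in 2-cell and 0.836 in 4-cell embryos. Without chromosome 25, the fullest, it was 0.827 in 8-cell and 0.694 in 16-cell embryos, 0.717 in morulae and 0.789 in day 14 embryos. Keeping peaks no narrower than the median of 329 bp gave 2.44 in MII oocytes and 2.39 in blastocysts. In day 14 embryos it was 0.966 without the last 3 Mb of the rest, 0.887 with peaks under 500 bp apart joined and 0.862 with each chromosome against its own rest, an alternative chosen after seeing the data. The ratio of median widths was 1.14 in 4-cell embryos over the first 1 Mb and 1.98 in blastocysts with close peaks joined. The excess in sharing was, with 50% of both peaks required, 22.2 percentage points in 2-cell embryos, 6.22 in morulae derived in vivo and -1.16 in day 14 embryos, and at equal widths 14.3 in blastocysts and 27.2 in blastocysts derived in vivo. The excess in neighbours was 18.1 points in 2-cell embryos within 50 kb and, in day 14 embryos, 0.0531 within 5 kb and -1.97 without chromosome 25. No paired analysis was possible because the authors merged the libraries of a group into 1 list, so leaving out a library was not possible either. Depth, unknown here, limits every number of peaks: a peak missing from a short list is not shown to be closed chromatin.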

Other observations

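The starts of chromosomes 14 and X were not among the members. The first 3 Mb of chromosome 14, an acrocentric autosome, was denser than its rest in all 11 lists, from 1.94 times in morulae derived in vivo to 50.5 times in blastocysts, with 141 of 217 blastocyst peaks of that chromosome at its start. It was 23.2 times as dense in GV oocytes with 81 peaks, 46.1 times in 2-cell embryos with 105 and 4.42 times in day 14 embryos with 1433. None of the 28 autosomes described above reached 8 times in any list. In blastocysts derived in vivo the chromosome 14 start held 66 peaks, against 50 members on all 28 other starts. The counts were 141 against 128 in blastocysts, 81 against 105 in GV oocytes and 1433 against 11483 in day 14 embryos. The pooled ratios above, also those flagged as opposite, thus apply without chromosome 14 only. Their values and directions with it were not calculated.

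The X chromosome of cattle is not acrocentric, so its start is not centromeric. In the short lists its first 3 Mb held 1 GV peak, 1 MII peak, 1 4-cell peak and 0 peaks in 2-cell embryos and both blastocyst lists, and its first 0.1 Mb held 0 in all of these lists. In the long lists the density there was between 0.477 times (morulae derived in vivo) and 0.916 times (morulae) that of the rest of X.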
